A study of Mus musculus with 4 samples.

Results

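The chimeric eCLIP-seq data were examined for the target sites of 2 miRNA seed families, miR-103/miR-107 and miR-148/miR-152, in mouse plantaris muscle. Members were all peaks that the deposited files assigned to mmu-miR-103-3p or mmu-miR-107-3p, and all peaks assigned to mmu-miR-148a-3p, mmu-miR-148b-3p or mmu-miR-152-3p. They made up 811 of the 93468 peaks of single miRNAs in the control library and 908 of 100897 in the mimic library. Of these, 306 in control muscle and 330 in mimic muscle belonged to miR-103/miR-107, and 505 and 578 belonged to miR-148/miR-152. A peak is a stretch of RNA crosslinked to Ago2 together with 1 miRNA ligated to it, and its value is the estimated number of chimeric reads, which could be a fraction. Peaks of different miRNAs with the same start and end form 1 interval.

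Both libraries came from adult male C57BL/6J mice aged 5 months whose plantaris had been under mechanical overload (MOV) for 10 days. This surgery removes part of the neighbouring calf muscles. The paper reports that growth of the plantaris under MOV was blunted with the mimic. The MOV control muscle, from the left leg, carried a control lentivirus, and the MOV mimic muscle, from the right leg, carried a lentivirus that expresses a miR-1 mimic with a fluorescent reporter. The virus was driven by a CMV promoter, which is not restricted to muscle fibers. Each group was 1 library, so every difference below describes these libraries and has no replicate check, and no p-value is given. Input libraries were not analysed here.

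miRNAs guide Ago2 to RNAs mainly through their seed, bases 2 to 8 from the 5′ end, and the bound RNA is usually silenced or destabilized. The miR-103/miR-107 genes lie within pantothenate kinase genes, and the family is known for targeting Dicer1, the enzyme that matures miRNAs, and Cav1, the caveolin that supports insulin receptor signaling. The miR-148/miR-152 family is known for targets that include DNA methyltransferases, lipid transporters and regulators of cell survival, and miR-152 lies within the vesicle coat gene Copz2.

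The mature sequences are shown because they set which members can be told apart and which other families can pair with the same sites. They are RefSeq sequences of GRCm38.p6, written 5′ to 3′ with the seed in capitals, and all 5 members were found in the table.
mmu-miR-103-3p: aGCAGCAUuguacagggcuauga
mmu-miR-107-3p: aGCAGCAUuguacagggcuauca
mmu-miR-148a-3p: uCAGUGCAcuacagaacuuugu
mmu-miR-148b-3p: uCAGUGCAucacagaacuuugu
mmu-miR-152-3p: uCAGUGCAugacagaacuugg
Mature mmu-miR-103-3p is encoded at chr2:131288103-131288125 and at chr11:35782447-35782469, both on the plus strand. mmu-miR-107-3p comes from chr19:34820700-34820722 on the minus strand. mmu-miR-148a-3p comes from chr6:51269829-51269850 on the minus strand, mmu-miR-148b-3p from chr15:103285185-103285206 on the plus strand and mmu-miR-152-3p from chr11:96850439-96850459 on the plus strand. mmu-miR-103-3p and mmu-miR-107-3p differed at 1 of 23 bases, written from mmu-miR-103-3p to mmu-miR-107-3p as G22C, with positions counted from the 5′ end. From mmu-miR-148a-3p to mmu-miR-148b-3p the differences were C9U and U10C, and over the 21 bases shared with mmu-miR-152-3p they were C9U, U10G and U20G. Reads that end before base 22 cannot separate mmu-miR-103-3p from mmu-miR-107-3p. No other mature miRNA among the 1679 names in the table had either seed.

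Each family also overlaps the seed of another family by a shift of 1 base. The shared heptamer is in capitals here.
mmu-miR-103-3p: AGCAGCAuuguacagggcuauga
miR-16-5p: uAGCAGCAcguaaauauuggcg
mmu-miR-152-3p: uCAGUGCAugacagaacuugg
miR-130a-3p: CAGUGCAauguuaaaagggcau
miR-301a-3p: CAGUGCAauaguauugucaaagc
Bases 1 to 7 of miR-103/miR-107 were bases 2 to 8 of miR-15a-5p, miR-15b-5p, miR-16-5p, miR-195a-5p, miR-322-5p and miR-497a-5p, called miR-15/miR-16 below. Bases 2 to 8 of miR-148/miR-152 were bases 1 to 7 of miR-130a-3p, miR-130b-3p, miR-301a-3p and miR-721, which are called miR-130/miR-301 below together with miR-301b-3p, for which no sequence was given.

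The control library held 232408 chimeric reads and the mimic library 259207. miR-1a-3p, the miRNA of the mimic, had 27411 and 35876 reads, 1.31-fold more with the mimic (95% conditional binomial interval 1.29 to 1.33), against 1.12-fold for all reads. All 8 skeletal muscle markers had peaks of some miRNA in both libraries, from 233 to 17514 reads in control muscle and from 311 to 23569 in mimic muscle. All 5 fibroblast markers also had peaks, whereas all 3 adipocyte markers were at 0.

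The miR-148/miR-152 family was the more frequent of the 2 and differed little between the libraries. It had 505 peaks in control muscle, or 0.540% of the total (0.494 to 0.589%, Clopper-Pearson interval at 95%), and 578 in mimic muscle, 0.573% (0.527 to 0.621%). Its summed reads were 782 in control muscle (728 to 839, Poisson interval at 95%) and 904 in mimic muscle (846 to 965). Mimic reads were 1.16 times the control reads (1.05 to 1.27), or 1.04 times (0.941 to 1.14) after division by the library totals. All intervals here cover counting error only.

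Within this family mmu-miR-152-3p dominated. It had 299 peaks and 516 reads in control muscle and 354 peaks and 571 reads in mimic muscle, a ratio of 1.11 (0.981 to 1.25). mmu-miR-148a-3p followed with 163 peaks and 205 reads in control muscle and 173 peaks and 238 reads in mimic muscle, a ratio of 1.16 (0.959 to 1.41). mmu-miR-148b-3p was the least frequent by reads, with 43 peaks and 61.8 reads in control muscle and 51 peaks and 94.9 reads in mimic muscle. It was the member that differed most, by 1.53-fold (1.101 to 2.15). Divided by the library totals its ratio was 1.38 (0.987 to 1.92), which no longer excludes 1. A background of 145 other miRNAs, each with 50 peaks or more in both libraries, was used for comparison, and 5 of them had a higher ratio than mmu-miR-148b-3p, and the 5th to 95th percentile of their ratios ran from 0.763 to 1.47 around a median of 1.05.

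The miR-103/miR-107 family had nearly the same size in both libraries. Its 306 peaks in control muscle and 330 in mimic muscle were 0.327% of all peaks in each (0.292 to 0.366% and 0.293 to 0.364%). The summed reads were 285 (253 to 320) in control muscle and 300.01 (267 to 336) in mimic muscle, with a ratio of 1.05 (0.892 to 1.24). mmu-miR-103-3p held most of them, with 257 and 280 peaks and 245 and 262 reads, a ratio of 1.07 (0.895 to 1.28). mmu-miR-107-3p had 49 and 50 peaks and 39.7 and 37.7 reads, a ratio of 0.951 (0.593 to 1.52). The plot of reads and peaks by member shows the order of the members, which by reads was the same in both libraries.

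**Figure D1:**
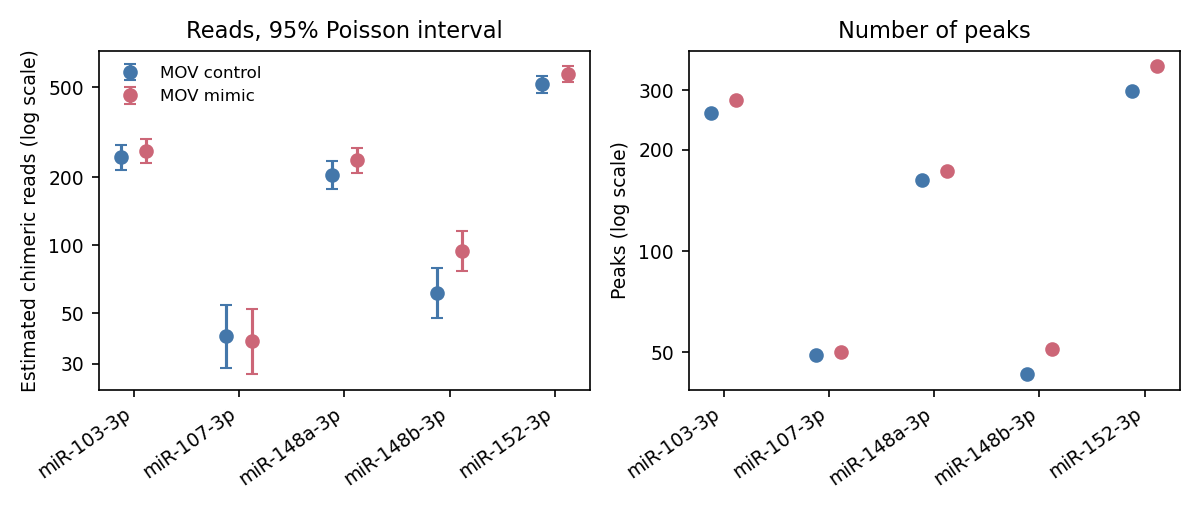
Estimated chimeric reads (left, log scale, points with 95% Poisson intervals) and number of peaks (right, log scale) of the 5 members in the MOV control and MOV mimic libraries, 1 library each. By reads mmu-miR-152-3p was highest (516 and 571) and mmu-miR-107-3p lowest (39.7 and 37.7), and the intervals of the 2 libraries overlapped slightly even for mmu-miR-148b-3p (61.8 and 94.9).

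Most peaks of both families rested on few reads. A typical peak (median) of miR-103/miR-107 had 0.739 reads in control muscle and 0.774 in mimic muscle, and one of miR-148/miR-152 had 0.875 and 0.786. Peaks of at least 3 reads numbered 13 and 11 for miR-103/miR-107 and 20 and 16 for miR-148/miR-152. The exception was a single site that outweighed all others.

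That site lay in H19, the imprinted long noncoding RNA that is abundant in embryonic and regenerating muscle. H19 spans chr7:142575530-142578146 on the minus strand of GRCm38, and the site covered chr7:142575741-142575858 in control muscle and ended at 142575856 in mimic muscle, 211 to 328 nt from the 3′ end of the gene. It held 318 miR-148/miR-152 reads in control muscle (284 to 355) and 388 in mimic muscle (350 to 429). These were 40.6% (37.2 to 44.2%) and 42.9% (39.7 to 46.2%) of all reads of the family. By contrast, the whole of H19 held 1.84% and 2.03% of the reads of all miRNAs outside both families. Since the muscle was taken whole, the number of cells that expressed H19 and the amount of H19 per cell cannot be told apart in these values.

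All 3 members bound there. mmu-miR-152-3p had 225 reads in control muscle (197 to 256) and 239 in mimic muscle (210 to 271), a ratio of 1.06 (0.882 to 1.28). mmu-miR-148a-3p had 60.3 (45.8 to 77.2) and 94.7 (76.9 to 116), a ratio of 1.57 (1.13 to 2.23). mmu-miR-148b-3p had 32.5 (22.7 to 46.3) and 54.5 (41.4 to 71.6), a ratio of 1.68 (1.06 to 2.65). The family ratio at the site was 1.22 (1.05 to 1.42), and all miRNAs together had a ratio of 1.28 there (1.22 to 1.34). The unscaled ratio was above 1 beyond counting error for mmu-miR-148a-3p, for mmu-miR-148b-3p and for the site as a whole, but not for mmu-miR-152-3p. All chimeric reads differed 1.12-fold between the libraries. The lower bounds for mmu-miR-148a-3p (1.13) and for all miRNAs at the site (1.22) lay above that value. The lower bounds for mmu-miR-148b-3p (1.06) and for the family (1.05) lay below it. Scaled by library totals, the site ratio was 1.41 for mmu-miR-148a-3p, 1.503 for mmu-miR-148b-3p and 0.951 for mmu-miR-152-3p.

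The site was shared with miR-130/miR-301, the family with the offset seed. miR-130/miR-301 had 1420 reads there in control muscle and 1904 in mimic muscle, 49.2% and 51.5% of the 2889 and 3694 reads of the site, and miR-148/miR-152 had 11.0% and 10.5%. Peaks of 96 miRNAs in control muscle and 102 in mimic muscle fell on the site. mmu-miR-152-3p came next by reads after miR-130a-3p and miR-199a-5p. For mmu-miR-148b-3p, 52.6% of its own reads lay on H19 in control muscle and 57.5% in mimic muscle, and of 145 background miRNAs the only ones with a higher share were miR-130a-3p and miR-301a-3p in both libraries. The corresponding shares were 44.1% and 42.6% for mmu-miR-152-3p and 30.04% and 41.1% for mmu-miR-148a-3p, against a background median of 0.344% and 0.494%.

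**Figure D2:**
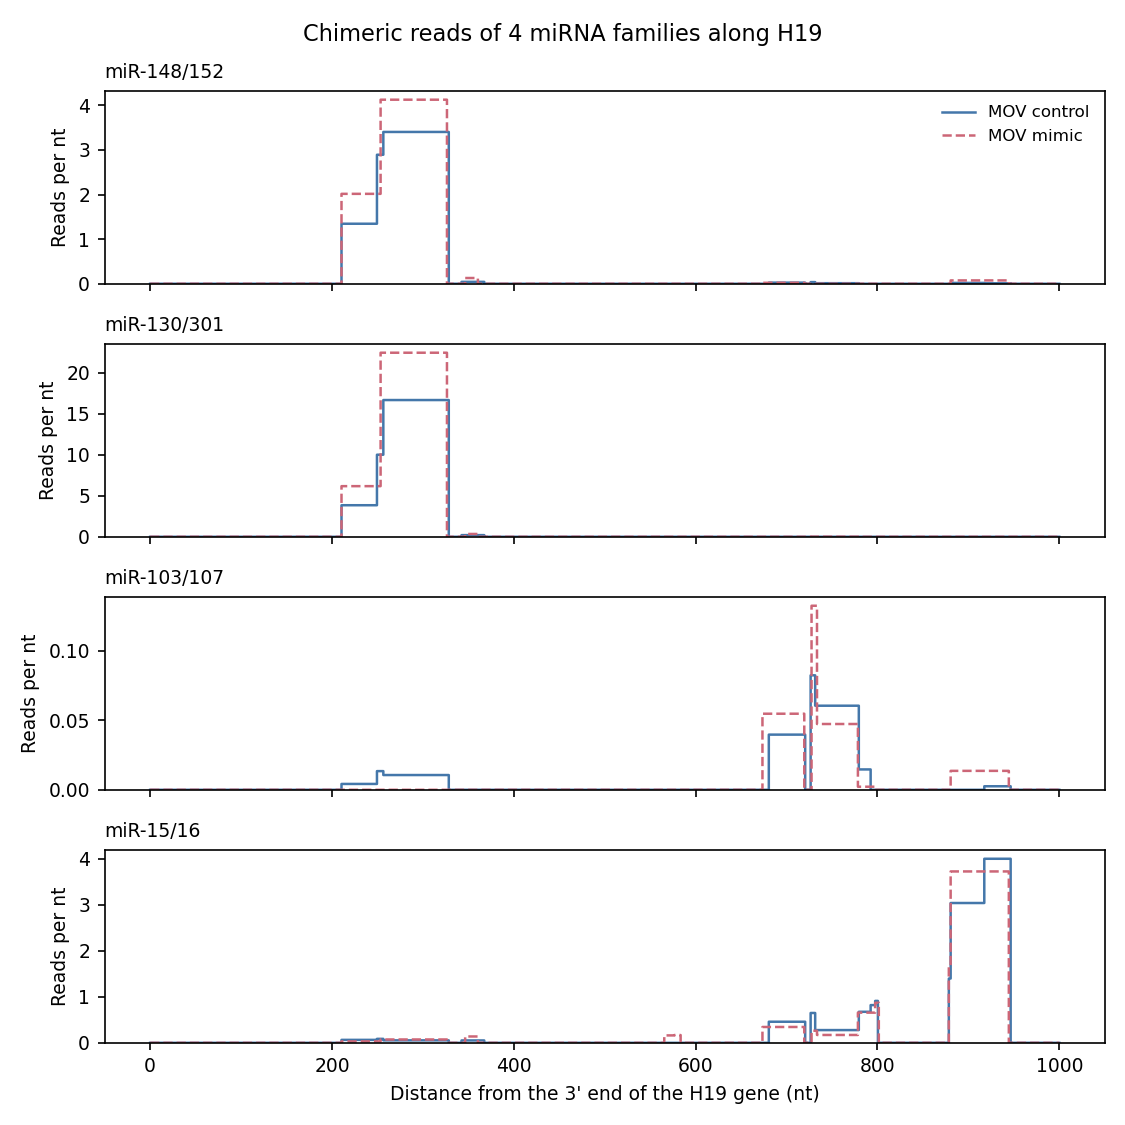
Chimeric reads per nucleotide along the 3′ part of H19 (distance from the 3′ end of the gene in nt) for 4 miRNA families, MOV control as solid and MOV mimic as dashed lines, with a separate linear scale in each panel. miR-148/miR-152 and miR-130/miR-301 shared the site 211 to 328 nt from the 3′ end, miR-103/miR-107 lay mainly 674 to 792 nt from it, and miR-15/miR-16 were highest between 879 and 946 nt.

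miR-103/miR-107 touched H19 at another place. It had 6.19 reads on the gene in control muscle and 6.36 in mimic muscle, most of them 681 to 792 nt from the 3′ end in control muscle and 674 to 797 nt in mimic muscle. At the main miR-148/miR-152 site it had 1.02 reads in control muscle and 0 in mimic muscle, where a count of 0 allows up to 3 reads. The plot along H19 shows that miR-15/miR-16 also had reads over the miR-103/miR-107 stretch, but were highest further from the 3′ end.

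Outside the H19 site the split between members was much the same in both libraries. mmu-miR-152-3p held 62.6% (58.0 to 67.0%) of the remaining 465 family reads in control muscle and 64.3% (60.04 to 68.5%) of 516 in mimic muscle. mmu-miR-148a-3p held 31.1% (26.8 to 35.4%) and 27.8% (24.1 to 32.0%), and mmu-miR-148b-3p held 6.30% (4.22 to 8.83%) and 7.81% (5.60 to 10.4%). At the H19 site mmu-miR-148b-3p held 10.2% (7.25 to 14.3%) and 14.1% (10.9 to 18.05%), a share whose interval lay apart from that of the other sites in mimic muscle but not in control muscle. mmu-miR-148a-3p held 18.99% (14.7 to 23.6%) and 24.4% (20.3 to 29.1%) at the H19 site, less than elsewhere with intervals apart in control muscle but not in mimic muscle.

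Among protein-coding targets of miR-148/miR-152, Camk1d stood first by reads. Genes were assigned by their whole span, so whether a peak lay in an exon or an intron was not determined. Camk1d is a calcium- and calmodulin-dependent kinase, and its reads came from 1 peak at chr2:5379260-5379379 on the minus strand. This peak had 23.8 reads in control muscle (15.4 to 35.7) and 39.9 in mimic muscle (28.6 to 54.5), a ratio of 1.68 (0.980 to 2.89). Most came from mmu-miR-152-3p, which supplied 13.9 reads in control and 33.9 in mimic muscle. The family made up 18.5% and 27.7% of the reads of all miRNAs in that interval.

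The tropomyosin gene Tpm2, which encodes a thin filament protein, had 15.4 and 9.36 miR-148/miR-152 reads, and 1 peak at chr4:43515691-43515749 held 14.3 of those in control muscle. Its ratio was 0.607 (0.232 to 1.46). The giant sarcomere protein gene Ttn had 14.4 reads over 8 intervals in control muscle and 9.31 over 13 intervals in mimic muscle, none of them with 3 reads. The myosin heavy chain gene Myh1 had 2.91 and 6.74 reads. In each of these genes the interval of the ratio included 1.

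Errfi1, an inhibitor of the EGF receptor, had 8.53 miR-148/miR-152 reads in control muscle (4.12 to 17.1) and 2.81 in mimic muscle (0.619 to 8.77), all in 1 peak close to the 3′ end of the gene. Cflar, an inhibitor of caspase 8, had 7.19 reads in control muscle (2.81 to 14.4) and 2.42 in mimic muscle (0.242 to 7.22). C1galt1, a glycosyltransferase of O-linked sugars, had 2.31 (0.242 to 7.22) and 5.65 (2.20 to 13.1). Nptn, a cell adhesion protein, had 3.53 and 3.57 reads and thus nearly the same value in both. None of these genes differed beyond counting error.

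The collagen gene Col3a1 was the only one of the 10 leading genes whose miR-148/miR-152 reads were confined to 1 library. It had 8.30 reads over 7 peak intervals in control muscle (3.45 to 15.8) and 0 in mimic muscle, where a count of 0 allows up to 3 reads. Its reads of all miRNAs were 1279 and 1148, so the gene itself was well covered in both. Col1a1 went the other way, with 1.96 reads in control muscle (0.242 to 7.22) and 6.16 in mimic muscle (2.20 to 13.1), a ratio of 3.14 (0.536 to 30.4).

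For miR-103/miR-107, the largest value in 1 library outside ribosomal RNA was in the muscle creatine kinase gene Ckm, which regenerates ATP during contraction. Ckm had 12.7 reads in control muscle (6.92 to 22.2) and 6.997 in mimic muscle (2.81 to 14.4), nearly all at chr7:19416773-19416892, with a ratio of 0.551 (0.182 to 1.45). Col1a1, the main fibrillar collagen, had 10.8 (5.49 to 19.7) and 11.6 (6.20 to 21.0) reads. Vim, the intermediate filament of fibroblasts and immature muscle cells, had 5.58 (2.20 to 13.1) and 8.12 (3.45 to 15.8). The intervals of the 2 libraries overlapped in each of these genes.

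A few miR-103/miR-107 targets were seen almost only in 1 library. Ifitm3, an interferon-induced membrane protein, had 10.2 reads in control muscle (4.80 to 18.4) in 1 peak at chr7:141010636-141010680 and 0 in mimic muscle, where a count of 0 allows up to 3 reads. Its reads of all miRNAs also differed, at 38.5 and 20.5. Ttn had 0.940 reads in control muscle (0.0253 to 5.57) and 10.1 in mimic muscle (4.80 to 18.4) spread over 11 intervals, while the reads of all miRNAs on it were 17514 and 23569. Exoc3, a subunit of the exocyst that tethers vesicles, had 0 and 5.41 reads, and the deubiquitinase gene Otud4 had 0.614 and 4.34. The interval of the ratio excluded 1 for Ifitm3 and Ttn, but not for Exoc3 or Otud4.

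Other leading miR-103/miR-107 genes did not differ beyond counting error. The chemokine gene Cxcl12 had 5.25 reads in control muscle and 1.66 in mimic muscle, the actin gene Acta1 4.83 and 1.89, the ATP synthase gene Atp5o 1.91 and 4.07, and the lysosomal gene Psap 2.18 and 3.25. A peak at chr16:43637989-43638064 on the plus strand lay in no gene span of that strand, opposite Tigit. It had 4.78 miR-103/miR-107 reads in control muscle and 9.43 in mimic muscle, and the family held 82.7% and 80.6% of all reads there.

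The ribosomal RNA gene Rn18s-rs5 was the largest single target of miR-103/miR-107. It had 40.7 reads in control muscle (29.4 to 55.6) and 39.9 in mimic muscle (28.6 to 54.5), 14.3% and 13.3% of the family, and its highest peak was at chr17:39846891-39846936 with 17.0 and 21.2 reads. For all miRNAs outside both families the share on ribosomal RNA was 6.71% and 6.41%. miR-148/miR-152 had 32.2 and 33.5 reads on it, 4.111% and 3.71% of that family. Mitochondrial transcripts held 0.724% and 0.639% of the miR-103/miR-107 reads and 1.31% and 2.25% of the miR-148/miR-152 reads, against 13.7% and 13.5% for the other miRNAs. The highest mitochondrial peak was that of miR-148/miR-152 on mt-Rnr2 in mimic muscle, with 5.60 reads.

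**Figure D3:**
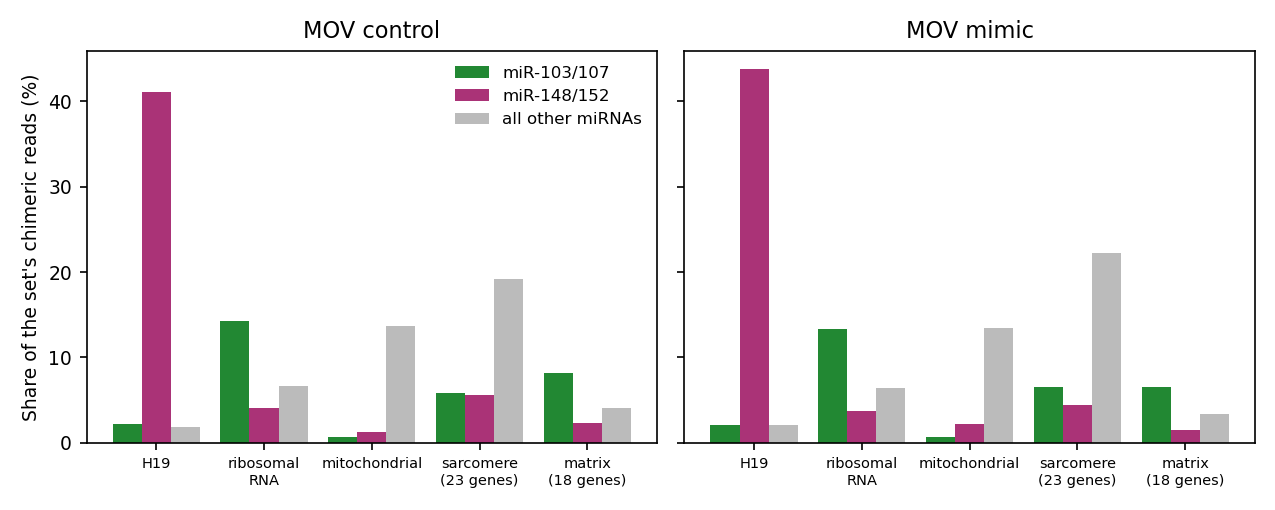
Share of chimeric reads (%) on H19, ribosomal RNA, mitochondrial transcripts, 23 sarcomere genes and 18 matrix genes for miR-103/miR-107, miR-148/miR-152 and all other miRNAs, in the MOV control (left) and MOV mimic (right) library. H19 held 41.1% and 43.8% of the miR-148/miR-152 reads, ribosomal RNA 14.3% and 13.3% of the miR-103/miR-107 reads, and both families lay below the other miRNAs on sarcomere and mitochondrial transcripts.

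Sarcomere genes took a smaller part of both families than of the other miRNAs pooled. The pool, here and above, is weighted by reads, and miR-1a-3p alone held 11.8% and 13.8% of all chimeric reads. It therefore does not describe a typical single miRNA. The 23 genes held 5.86% and 6.56% of the miR-103/miR-107 reads and 5.62% and 4.43% of the miR-148/miR-152 reads, against 19.1% and 22.2% of all others. miR-103/miR-107 had a peak in 16 of the 23 genes in either library and in 7 in both, and miR-148/miR-152 in 14 and 9. The counts for either library were 69.6% and 60.9% of the list, against 4.53% and 7.27% of all genes with a peak, and the sarcomere genes had 44347 and 57310 reads of all miRNAs. The 18 matrix genes, mostly collagens and their binding partners, held 8.23% and 6.51% of the miR-103/miR-107 reads, against 4.08% and 3.39% of all others. A large part of this came from 1 gene, Col1a1, with 10.8 and 11.6 of the 285 and 300.01 family reads. Whether the share stays higher without Col1a1 was not tested. In either library miR-103/miR-107 had a peak in 12 of the 18 matrix genes (66.7%, against 4.53% of all genes with a peak). The matrix genes had 9486 and 8780 reads of all miRNAs. For miR-148/miR-152 the matrix share was 2.33% and 1.51%, and without H19 it was 3.95% and 2.68%. Without H19 the sarcomere share of miR-148/miR-152 was 9.54% and 7.87%, still below that of the other miRNAs.

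Target genes were counted by at least 1 peak. miR-103/miR-107 had 206 target genes in control muscle and 220 in mimic muscle, 3.09% and 3.17% of the genes with any peak in each library, and 61 genes were found in both. miR-148/miR-152 had 333 and 362, which were 5% and 5.21%, with 109 in both. Over either library the families had 365 and 586 target genes, 4.53% and 7.27% of 8065 genes. The genes they shared were 28.2% of the miR-103/miR-107 and 17.6% of the miR-148/miR-152 targets. In both libraries 16 genes were targets of both families, among them H19, Ttn, Col1a1, Ckm, Myh1, Myh4, Postn and Prkaa1, the catalytic subunit of the energy sensor AMPK. Prkaa1 had 2 and 1.95 miR-103/miR-107 reads and 1.57 and 0.674 miR-148/miR-152 reads.

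Known targets were then checked from lists written from general knowledge. Of the 16 listed miR-103/miR-107 targets, 14 had a peak of some miRNA and 1, Dicer1, had a miR-103/miR-107 peak, or 7.14% against 4.53% of all genes. Dicer1 had 0.208 reads in control muscle (0 to 3.69) and 3.92 in mimic muscle (1.09 to 10.2), of which 2.94 lay at chr12:104703008-104703062 on the minus strand. There the family made up 46.3% of the reads. Cav1 had 0 miR-103/miR-107 reads in both libraries, which allows up to 3 reads, although 32.1 and 68.6 reads of other miRNAs fell on it.

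Of the 20 listed miR-148/miR-152 targets, 14 had a peak of some miRNA and 7 had a family peak in either library, 50% against 7.27% of all genes. On the list of the other family, miR-148/miR-152 had a peak in 3 of 14 such genes (21.4%), also above 7.27%. For miR-103/miR-107 the value on the miR-148/miR-152 list was 1 of 14 (7.14%), the same as on its own list. Prkaa1 and Sik1, a salt-inducible kinase, had one in both libraries, with 1 and 0.720 reads for Sik1. The pro-apoptotic gene Bcl2l11 had 0 and 2.15 reads, the integrin gene Itga5 1.68 and 0, and the receptor kinase gene Met 1 and 0. The cholesterol exporter gene Abca1 had 0 and 0.646 reads and the transcription factor gene Mitf 0 and 0.683. All of these values are under 3 reads, so presence in 1 library and absence from the other cannot be separated from counting error. The DNA methyltransferase gene Dnmt1 had no family peak. The host genes Pank1, Pank2 and Pank3 had no peak of either family, and Copz2 had 0.172 miR-148/miR-152 reads in mimic muscle only.

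Sequences at the peaks were compared with the seeds. The match to the miR-103/miR-107 seed is ATGCTGC and the match to the miR-148/miR-152 seed is TGCACTG, both searched on the sense strand of the longest coding transcript of each gene in the GENCODE annotation of mm9, with no coordinate carried between builds. A match was placed at a peak where both lay at the same distance from the 3′ end of the gene within the last exon, which misses peaks in other exons and genes whose annotated ends differ. A match is a description of the sequence and not proof of a site.

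The miR-148/miR-152 match was common at miR-148/miR-152 peaks and rare elsewhere. Of 158 family intervals that could be placed in control muscle, 32 held TGCACTG (20.3%), and of 176 in mimic muscle 41 did (23.3%). Among intervals without the family, 37 of 5761 (0.642%) and 54 of 6066 (0.890%) held it, with median lengths of 64 and 67 nt against 77.5 and 71.5 nt for the family. Where the family held at least 25% of the reads of an interval, the match was found in 15 of 42 (35.7%) and 27 of 62 (43.5%). The match TTGCACT of miR-130/miR-301, which overlaps TGCACTG by 6 letters, was found in 13.9% and 15.9% of the miR-148/miR-152 intervals and in 0.764% and 0.857% of those without the family.

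For seed matches at peaks, no counting interval was computed between the families. By share alone, on few intervals, the miR-103/miR-107 match was less common at its own peaks. It was found in 7 of 56 intervals in control muscle (12.5%) and 13 of 67 in mimic muscle (19.4%), against 97 of 5863 (1.65%) and 76 of 6175 (1.23%) without the family. The match TGCTGCT of miR-15/miR-16, which overlaps ATGCTGC by 6 letters, was found in 16.1% and 25.4% of the miR-103/miR-107 intervals and in 5.03% and 4.49% of those without the family. Over whole coding transcripts the contrast was smaller, since ATGCTGC was present in 47.1% of the miR-103/miR-107 target genes and in 35.3% of all coding genes with a peak. The corresponding values for TGCACTG were 47.8% and 31.5%.

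**Figure D4:**
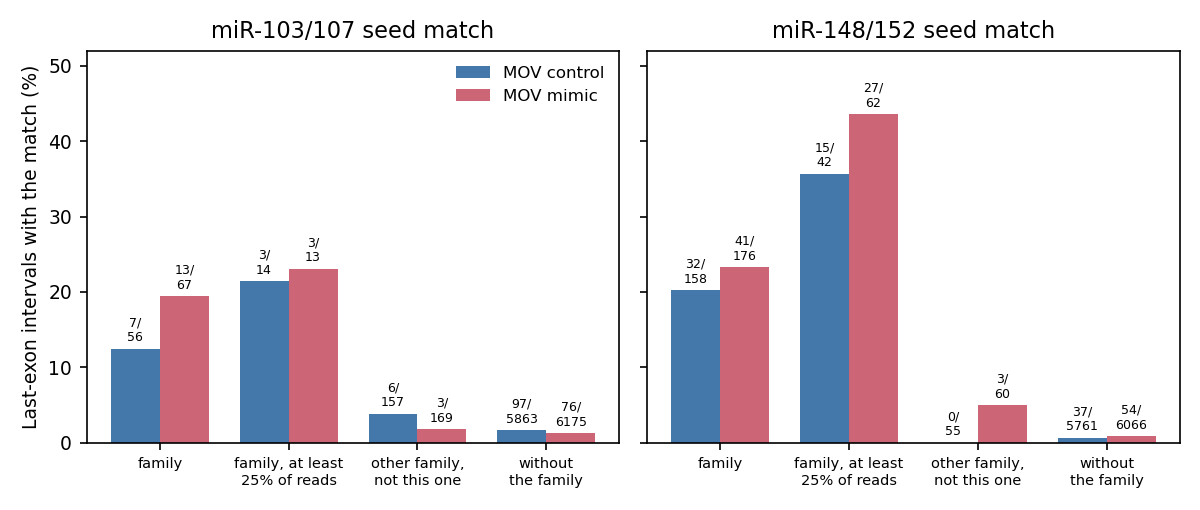
Share of last-exon intervals (%) that held the family's own seed match, for intervals of the family, intervals in which the family held at least 25% of the reads, intervals of the other family without it, and all intervals without the family, in both libraries. Numbers above the bars are intervals with the match over all intervals, and the family bars (12.5 to 23.3%) stand above those without the family (0.642 to 1.65%).

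Sites with the match are shown for genes in which the family supplied a large part of the interval, or which were in the lists above. Genes without a match were left out of the sequences shown. Among the leading genes, no match to the family's seed was placed at the peaks of Camk1d, Tpm2, Ckm, Col1a1, Vim or Ifitm3. The placing covers last exons only, so a match elsewhere would be missed. These genes were chosen after their values were seen. The seed match is in capitals, and all lie in the 3′ UTR.
Errfi1, miR-148/miR-152: catgctttagaaaaaTGCACTGat
Nptn, miR-148/miR-152: aattctgaaatctttTGCACTGat
Tnrc6c, miR-148/miR-152: atttgcttctaacttTGCACTGag
C1galt1, miR-148/miR-152: ataagtggtctacatTGCACTGaa
Bcl2l11, miR-148/miR-152: gcttcctttacgtttTGCACTGat
Sik1, miR-148/miR-152: gttttgttttctcctTGCACTGag
Klf4, miR-148/miR-152: gcagacagtctgttaTGCACTGtg
Dll1, miR-103/miR-107: atatagccccgatgaATGCTGCtg
Snap47, miR-103/miR-107: caattcccccttcaaATGCTGCtg
In Errfi1 the match lay 113 to 119 nt from the 3′ end of the transcript, inside the peak of both libraries, which in control muscle lay at chr4:150868741-150868803 on the plus strand. The family supplied 68.7% of the reads of that interval in control muscle and 64.4% in mimic muscle. In Nptn it supplied 79.5% and 66.7%, and the match lay 306 to 312 nt from the end, within the peak of both libraries. Tnrc6c, a GW182 protein that works with Ago2 in silencing, had 3.74 and 2.14 family reads, 59.5% and 58.3% of its interval, with the match 1635 to 1641 nt from the end.

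The other sites shown rested on 1 library or on a smaller share. Klf4, a transcription factor, had 2.40 miR-148/miR-152 reads in control muscle and 0 in mimic muscle, at 65.9% of its interval. Bcl2l11 had all 2.15 reads of its interval from the family in mimic muscle. For miR-103/miR-107, the Notch ligand gene Dll1 had 2.35 reads in control muscle, 69.9% of its interval, and Snap47, a SNARE protein gene, had 2.46 in mimic muscle, 41.9%. Across the miR-148/miR-152 sites printed, the base after the match was A in Errfi1, Nptn, Tnrc6c, C1galt1, Bcl2l11 and Sik1.

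Most intervals were shared with many other miRNAs. The median interval with a family peak held 7 miRNAs for both families in both libraries, against 3 for all intervals. The median share of the interval's reads was 5.94% and 6.93% for miR-103/miR-107 and 8.37% and 8.29% for miR-148/miR-152. Intervals with at least 2 family reads that made up at least 50% of their reads numbered 3 and 5 for miR-103/miR-107 and 13 and 19 for miR-148/miR-152. Among the coding genes with such an interval and a transcript, 2 of 6 (33.3%) held the miR-103/miR-107 match anywhere in the transcript, against 35.3% of all coding genes with a peak, and 19 of 25 (76%) held the miR-148/miR-152 match, against 31.5%. Those with 0 matches included Cxcl12, Exoc3 and Mrps6, where miR-103/miR-107 held 72.2%, 73.0% and 100% of the interval, and C1qtnf6, Ankfy1 and Rhof, where miR-148/miR-152 held 85.1%, 100% and 100%.

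Families with the offset seed were frequent companions. A miR-15/miR-16 peak shared the interval in 54.6% (48.7 to 60.4%) of the miR-103/miR-107 intervals in control muscle and 53.9% (48.2 to 59.6%) in mimic muscle. The corresponding shares were 27.7% and 24.8% of the miR-148/miR-152 intervals and 12.5% and 11.9% of all intervals. miR-130/miR-301 shared 11.8% (8.95 to 15.2%) and 11.9% (9.18 to 15.1%) of the miR-148/miR-152 intervals, against 5.46% and 9.42% of the miR-103/miR-107 intervals and 1.08% and 1.04% of all. The intervals of miR-148/miR-152 and miR-103/miR-107 thus lay apart for miR-15/miR-16 in both libraries, and for miR-130/miR-301 in control muscle but not in mimic muscle, where 9.42% had an interval of 6.40 to 13.2%.

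Members of 1 family shared some intervals. mmu-miR-103-3p and mmu-miR-107-3p did so at 13 of 293 intervals in control muscle and 22 of 308 in mimic muscle, which were 26.5% and 44.0% of the mmu-miR-107-3p peaks. In these, mmu-miR-103-3p had more reads at 8 and 18. For miR-148/miR-152, 55 of 440 intervals in control muscle and 72 of 496 in mimic muscle held more than 1 member, and 10 in each held all 3. Because members differ by so few bases, a read of one may have been named as another, and this was not tested.

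The last comparison asked how far the sites recurred between the libraries. Of the miR-103/miR-107 intervals of the control, 68 of 293 (23.2%, 18.5 to 28.5%) overlapped an interval of the family in mimic muscle, and of the miR-148/miR-152 intervals 108 of 440 (24.5%, 20.6 to 28.8%). The value for peaks of all other miRNAs, each set against the same miRNA, was 35.6%. Recurrence depended on reads, since for miR-148/miR-152 it was 15.1% under 1 read, 33.5% from 1 to under 3 reads and 80.0% at 3 or more, and for miR-103/miR-107 it was 13.5%, 40.3% and 78.6%. At 3 or more reads the other miRNAs stood at 84.3%, within the intervals of both families, as was their 38.98% from 1 to under 3 reads. Under 1 read they stood at 23.4%, above the intervals of miR-103/miR-107 (9.18 to 18.95%) and miR-148/miR-152 (11.01 to 19.98%). Counted from mimic muscle, their 20.1% under 1 read was also above those intervals (8.44 to 17.74% and 9.75 to 17.54%). Low reads alone thus do not account for the lower recurrence of the families.

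Shared sites, each the other's largest overlap, numbered 61 for miR-103/miR-107 and 98 for miR-148/miR-152. The median of log2 (mimic over control) over these sites was 0 for both, with intervals of -0.18 to 0.39 and -0.34 to 0.30. Of the miR-103/miR-107 sites, 16 (26.2%) were at least 2-fold higher in mimic muscle and 12 (19.7%) at least 2-fold lower, against 23.6% and 19.5% of all shared peaks of all miRNAs. Of the miR-148/miR-152 sites, 23 (23.5%) were higher and 24 (24.5%) lower. Of the 6 miR-103/miR-107 and 8 miR-148/miR-152 sites with at least 3 reads in both libraries, 0 differed 2-fold, against 10.2% higher and 5.58% lower among all such peaks.

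**Figure D5:**
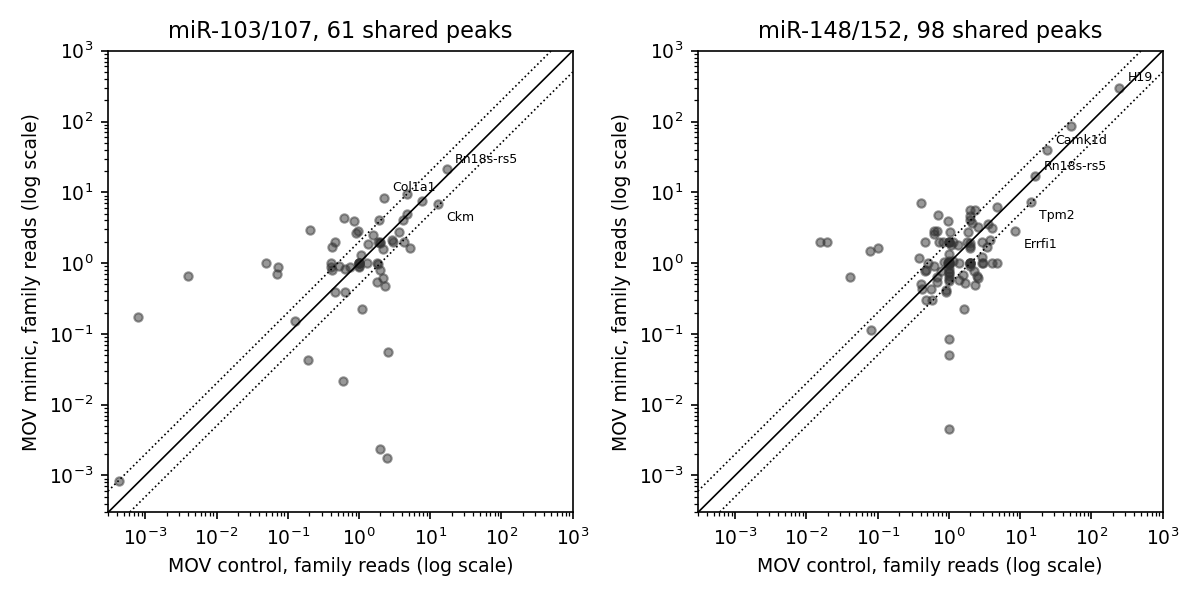
Family reads at shared sites in the MOV control (x axis, log scale) and MOV mimic (y axis, log scale) library, with the line of equal reads (solid) and the 2-fold lines (dotted), for 61 miR-103/miR-107 and 98 miR-148/miR-152 sites. Sites with many reads, such as H19, Camk1d and Rn18s-rs5, lay near the line, and the spread grew below 1 read.

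Among shared nuclear sites with a mean of at least 3 reads, there were 5 for miR-103/miR-107 and 10 for miR-148/miR-152. The highest ratios for miR-103/miR-107 were at Col1a1, from 2.24 to 8.43 reads (log2 ratio 1.91), at the peak opposite Tigit, from 4.78 to 9.43 (0.98), and at Vim, from 4.76 to 5 (0.07). At Col1a1 the mimic interval also covered a neighbouring control interval, chr11:94937917-94937942, with 5.79 family reads, so the value of that site turns on how control muscle was split into intervals, and the gene totals were 10.8 and 11.6 reads. The lowest were at Cxcl12, from 5.25 to 1.66 (-1.66), and Ckm, from 12.7 to 6.79 (-0.90). For miR-148/miR-152 the highest ratios were at the predicted gene Gm13410, from 0.400 to 6.97 reads (4.12), at C1galt1, from 2.31 to 5.65 (1.29), and at Tpm1, from 2 to 4 (log2 ratio 1). The lowest were at Errfi1 (-1.60), Tpm2 (-0.97) and the actin-binding gene Tmsb4x, from 4 to 3.10 (-0.37). Among these sites, the counting interval of the ratio excluded 1 at Gm13410 only, whose control value was under the limit of 3 reads.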

How the data were processed

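The deposited values were estimated counts of chimeric reads for 1 miRNA in 1 peak, mostly fractions, with no scaling by the authors for depth. The origin of the fractions and the naming of miRNAs alike in sequence are not given in the sources used here. Per the methods, reads were trimmed, filtered for repeats, aligned with STAR and freed of PCR duplicates, and peaks were called with CLIPper. Per the labels the tools were UMI-tools 1.1.1, cutadapt 3.2, STAR 2.7.7a, Bowtie 1.2.3 and HOMER 4.11 with the mm10 build, whereas the methods name mm9. The methods also describe amplification with a miR-1 primer, so shares of miRNAs describe these files and not abundance in muscle.

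Genes came from RefSeq spans of GRCm38.p6, with the strand from the RefSeq promoter table (27025 genes) or, by name, from the GENCODE annotation of mm9 (8750), and none for 14222. Each peak was given the same-strand gene it overlapped most, or one of unknown strand where there was none, and 99.0% of the intervals of each library had a gene. Coordinates count from 1. Of the coding target genes of either library, transcripts were found for 93.6% in both families. No sequence was read by coordinate.

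The families, gene lists and tests were chosen with earlier results of these data known. Named genes were, per family, the 10 nuclear genes with the most reads over both libraries, the highest mitochondrial and ribosomal peaks, the 3 largest rises and falls among shared sites with a mean of at least 3 reads, and listed or host genes with a family read. Genes named besides were chosen after their values were seen. Intervals are 95% and cover counting error only, on reads rounded to whole numbers: Clopper-Pearson for shares, Poisson for sums, conditional binomial for ratios and order statistics for medians. A count of 0 was taken to allow up to 3 reads, a 1-sided 95% Poisson bound. The 2-sided interval of such a count runs to 3.69 reads. Overlap means at least 1 nt. Functions were tested on simulated data. Python 3.11.15, pandas 2.3.3, numpy 2.4.6 and scipy 1.17.1 were used. Alternatives were a minimum of 3 reads, the library median as a minimum, scaling by library total, 50% reciprocal overlap, counting peaks in place of reads and single members.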

Additional observations from a re-analysis of the deposited data

Results flagged for a closer look

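The opposite, 5p arms of the member hairpins had chimeric reads outside the measurements above, and no control samples were used to set a level. They had 8.26 reads in 15 peaks in the MOV control and 9.27 reads in 18 peaks in the MOV mimic. These are sums over all arms, so the 3 reads that a single count of 0 allows are no measure for them. No single arm had more than 3 reads in both libraries. The miR-103-2 5p arm had the most in the control, with 5.06 reads, and the miR-152 5p arm the most in the mimic, with 3.17.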

How the results depend on the processing

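No paired analysis was possible because there was just 1 library of each kind. Leaving out H19, leaving out Rn18s-rs5 for the offset seed families and taking single members at the H19 site were chosen after seeing the data. Of 149 alternative values of the main results, 88 stayed within their counting interval, or within a factor of 1.5 for plain counts, and 61 moved further. Among the 149, 0 turned a direction that its interval had set. Pairs below are MOV control and MOV mimic, unless a family is named.

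A minimum of 3 reads left 13 and 11 miR-103/miR-107 peaks (0.11998% and 0.0957% of peaks) and 20 and 16 miR-148/miR-152 peaks (0.185% and 0.139%). The library median as a minimum left 113 and 132 (0.242% and 0.262%) and 239 and 244, 0.483% in the mimic. By reads, the shares were 0.122% and 0.116% for miR-103/miR-107 and 0.337% and 0.349% for miR-148/miR-152. With the minimum of 3 reads the miR-103/miR-107 ratio of mimic to control was 0.825, and by library total it was 0.945, both below 1 where the reported ratio of 1.05 had an interval that included 1. The miR-148/miR-152 ratio was 1.04 by library total and 1.53 for miR-148b-3p alone, and at H19 it was 1.57 for miR-148a-3p and 1.68 for miR-148b-3p alone.

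Overlap between libraries was 17.7% for miR-103/miR-107 and 19.1% for miR-148/miR-152 at 50% reciprocal overlap, and 50% for both where both needed 3 reads. Target genes with at least 2 peaks were 34 and 38 for miR-103/miR-107, 15 in both libraries, and 53 and 65 for miR-148/miR-152, 18 in both. With 3 reads they were 9 and 9, with 4 in both, and 16 and 17, with 6 in both.

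By number of peaks the sarcomere share was 14.4% and 12.1% for miR-103/miR-107 and 7.52% and 9.69% for miR-148/miR-152. At 3 reads it was 0% and 0%, and 3.66% and 0.808%. The matrix share at 3 reads was 10.7% for miR-103/miR-107 in the mimic and 1.28% and 0.645% for miR-148/miR-152, and by peaks 4.36% and 3.63% for miR-148/miR-152. Without H19 the miR-148/miR-152 sarcomere share was 9.54% and 7.87% and the matrix share 3.95% and 2.68%. At 3 reads, offset seed families shared 92.9% and 66.7% of the miR-103/miR-107 and 35% and 50% of the miR-148/miR-152 intervals. With the families exchanged, miR-130/miR-301 shared 35.7% and 25% of the miR-103/miR-107 intervals, and miR-15/miR-16 35% and 55% of the miR-148/miR-152 intervals. The counting intervals of the 2 families lay apart for miR-15/miR-16 in the control only (66.1 to 99.8% against 15.4 to 59.2%). For miR-130/miR-301 they overlapped in both libraries. The cause of these shifts was not tested. Low depth per site limits every statement on single genes.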

Other observations

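Other gene groups held few reads of either family. Of 20 insulin and IGF signaling genes, 19 had a peak of some miRNA, and 5 had a miR-148/miR-152 peak in either library (26.3%, against 7.27% of all genes with a peak) and 1 a miR-103/miR-107 peak (5.26%, near the 4.53% of all genes). They held 0.531% and 0.273% of the miR-148/miR-152 reads in the control and mimic, against 0.544% and 0.480% of the reads of other miRNAs. The growth factor gene Igf2 had 2.20 and 1.58 miR-103/miR-107 reads. Of 15 glycolysis and glycogen genes, miR-103/miR-107 had peaks in 9 (60% against 4.53%) and miR-148/miR-152 in 5 (33.3% against 7.27%), the latter the same 5 genes in each library. They held 0.732% and 1.27% of the miR-103/miR-107 reads and 0.740% and 0.533% of the miR-148/miR-152 reads, against 1.86% and 1.65% for the other miRNAs. Of 10 calcium handling genes, miR-103/miR-107 had peaks in 3 (30% against 4.53%) and miR-148/miR-152 in 5 (50% against 7.27%). In the control and mimic, these genes held 0.938% and 0.537% of the miR-103/miR-107 reads. They held 0.326% and 0.845% of the miR-148/miR-152 reads. Both families lay below the other miRNAs, at 1.14% and 1.201%. With 2646 and 3107 reads of all miRNAs on these genes, the gene counts alone do not show a preference for them. Atp2a1, the calcium pump of the sarcoplasmic reticulum, had 1.61 and 4.59 miR-148/miR-152 reads.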
